A study of Mus musculus with 6 samples.

Results

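The genes described are 37 that encode the autophagy machinery and transcription factors of the TFEB family, of 40428 features in the gene count table. They were chosen by symbol: every gene named Atg followed by a digit, together with 19 named genes (Tfeb, Tfe3, Mitf, Sqstm1, Map1lc3a, Map1lc3b, Gabarap, Gabarapl1, Gabarapl2, Becn1, Ulk1, Ulk2, Pik3c3, Uvrag, Wipi1, Wipi2, Nbr1, Optn and Rb1cc1). The 1 pseudogene that the symbol pattern matched, Atg4a-ps, was left out. The rule itself uses no expression value, although it was written with earlier results of these data known. All 37 passed the filter on low counts. Total RNA came from subcutaneous white adipose tissue (WAT), and all animals were C57BL/6J, housed at room temperature and fed regular chow. Control mice (3) carried floxed Nampt alleles (flox/flox), and ANKO mice (3) combined floxed Nampt with an adiponectin-Cre transgene, so that the gene was deleted in adipocytes. Whole tissue was used, so the deletion affects only part of the cells that gave RNA, and the labels used here give neither age nor sex. Each library is taken as 1 mouse. The labels do not state that the samples came from separate animals, so p-values measure the spread between these samples. No 2 libraries agreed within counting noise.

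Autophagy encloses cytoplasm, organelles and lipid droplets in a double membrane, the autophagosome, which fuses with the lysosome. A kinase complex around ULK1 starts the process and a lipid kinase complex marks the membrane with phosphatidylinositol 3-phosphate. Binding proteins and lipid carriers then enlarge it, and small ubiquitin-like proteins of the ATG8 family are conjugated to it, where cargo receptors such as SQSTM1 dock. TFEB, TFE3 and MITF, which belong to the MiT/TFE factors, are held in the cytoplasm by the nutrient-sensing kinase mTORC1 and otherwise drive lysosomal and autophagy genes. In fat the pathway is known for its part in adipocyte differentiation and in the turnover of mitochondria.

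Nampt, the gene deleted in ANKO adipocytes, encodes the rate-limiting enzyme of NAD salvage. Its level was 83.5, 92.9 and 86.9 CPM (counts relative to the library total, scaled between libraries by TMM) in controls 1 to 3 and 48.5, 50.1 and 46.96 CPM in ANKO 1 to 3. It fell in ANKO tissue (log2 fold change -0.85, SE 0.0776, adjusted p = 0.00416, edgeR quasi-likelihood test with Benjamini-Hochberg adjustment over 19272 features). Total counts were 19748962 to 23860596 per library. Levels of cell type markers differed between the groups. The summed level of 10 adipocyte markers was 12581 to 18973 CPM in controls and 5182 to 7729 CPM in ANKO, with 4 of them called lower. Cfd took a large part of that sum, with 5672, 7778 and 7433 CPM in controls and 1127, 1136 and 1175 CPM in ANKO. Of the 10, 9 had a negative log2 fold change and Slc2a4 a positive one (0.15). In 6 every ANKO value lay below every control value (background 10.2%). The summed level of 12 macrophage markers was 3566 to 4713 CPM in controls and 2537 to 3696 CPM in ANKO. Lpl, which adipocytes also express, took most of that sum. Without it, a choice made after its values were seen, the other 11 summed to 733 to 885 CPM in controls and 1037 to 1214 CPM in ANKO, and 2 of the 12 (Adgre1 and Trem2) were called higher. Skeletal muscle markers took 0.329% to 1.69% of counts in controls and 3.34%, 0.563% and 0.0275% in ANKO 1, 2 and 3. Every one of the 10 adipocyte markers passed the low-count filter. All 6 endothelial and all 8 lymphocyte markers had negative log2 fold changes, and 6 of 7 fibroblast and preadipocyte markers positive ones. None of these was called, and 50.1% of all features were positive. The 6 epithelial markers summed to 638, 1198 and 162 CPM in controls 1 to 3 and 755, 616 and 490 CPM in ANKO 1 to 3. In bulk tissue fewer cells of a type and less RNA per cell cannot be told apart.

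No autophagy gene passed the test in either direction. Across all features 0.488% were called higher and 1.1% lower at an adjusted p under 0.05, so few calls would fall among 37 genes at the background rate. Unadjusted p-values under 0.05 were found for 5 genes with higher values in ANKO (Sqstm1, Mitf, Atg12, Gabarapl1 and Wipi1) and for 1 with lower values (Map1lc3a), against 6.02% and 6.91% of all features. DESeq2 called Sqstm1 and Mitf higher and Map1lc3a lower, and limma-voom called none. The median log2 fold change of the 37 genes was 0.027, against 0.00060 over all features, and 23 had a positive value. Without control 1 the median was -0.0146 and 17 were positive. In 6 genes every ANKO value lay above every control value (background 9.18%), and in 5 every ANKO value lay below (background 10.2%).

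**Figure D1:**
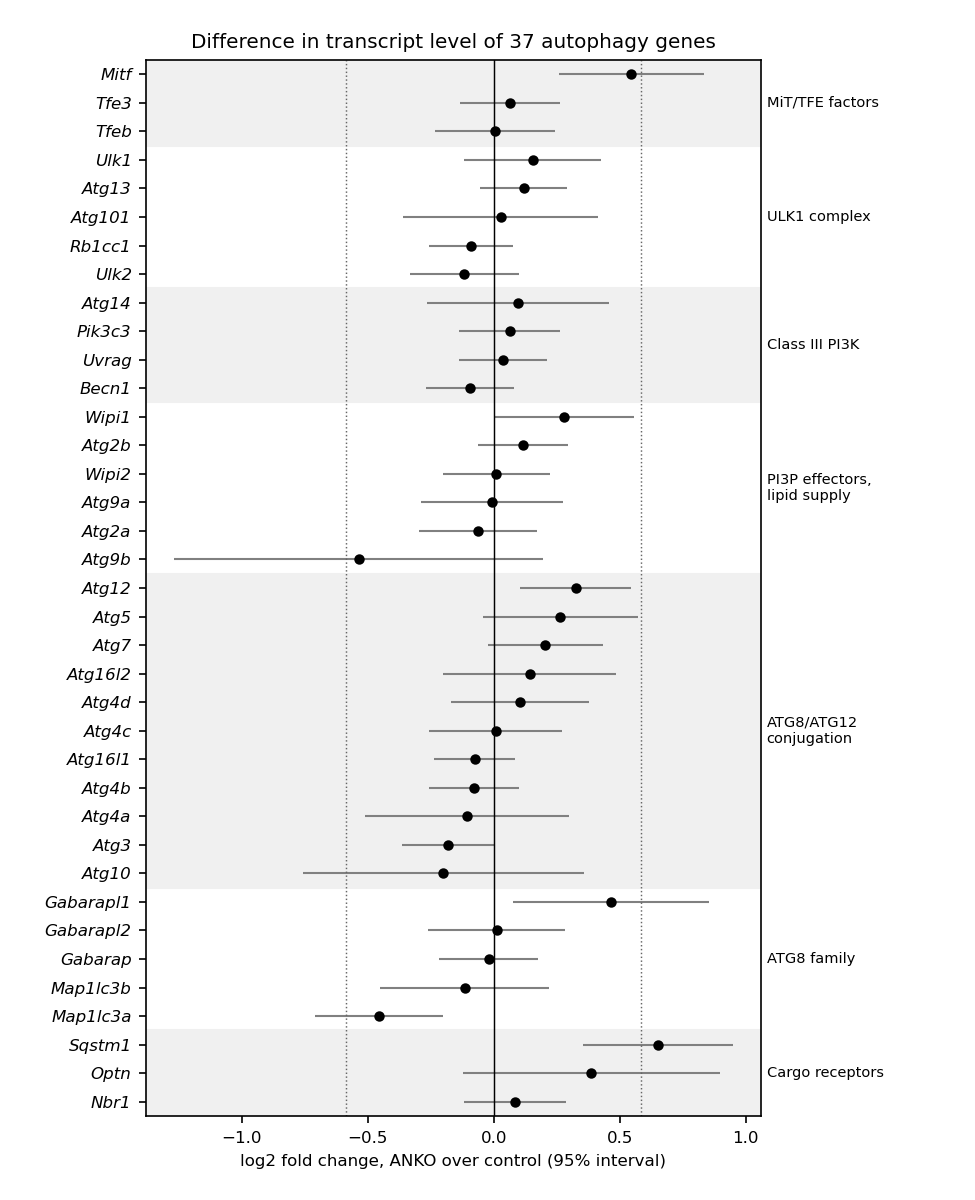
Log2 fold change of each of the 37 genes, ANKO over control, on the x axis, with genes on the y axis grouped by role. Points are estimates of the edgeR fit, bars are 95% intervals and dotted lines mark a 1.5-fold difference; Sqstm1 had the highest value (0.65) and Atg9b the lowest (-0.54).

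The measurement was narrow enough to bound most of these differences in the RNA of the whole tissue. It does not bound a difference within adipocytes, whose summed markers were lower in ANKO. For 30 of the 37 genes the whole 95% interval of the fold change lay within 1.5-fold in either direction, which held for 44.1% of all features. The median SE was 0.11 for the 37 genes and 0.186 over all features, which were not matched to them for abundance. The 7 exceptions were Sqstm1, Mitf, Map1lc3a, Gabarapl1, Optn, Atg10 and Atg9b. Atg9b and Atg10 were among the least abundant genes of the group.

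Among the transcription factors, Mitf stood apart from its relatives. Mitf (chromosome 6, 97807052 to 98021349, plus strand, GRCm38), a basic helix-loop-helix leucine zipper factor known from melanocytes, mast cells and osteoclasts, had 23.3, 19.7 and 21.6 CPM in controls 1 to 3 and 35.3, 31.7 and 27.2 CPM in ANKO 1 to 3. All 3 ANKO values were above all 3 control values. The log2 fold change came to 0.55 (SE 0.125, 95% interval 0.257 to 0.834) and missed the threshold, with adjusted p = 0.0911 by the edgeR test. Leaving out any 1 library gave log2 fold changes of 0.47 to 0.64 and no call. Tfeb (chromosome 17, 47737030 to 47792419, plus strand), the factor named as the main regulator of lysosomal genes, had 50.1, 47.1 and 57.4 CPM in controls and 51.7, 47.5 and 55.8 CPM in ANKO. The ranges of Tfeb overlapped almost fully, with a log2 fold change of 0.0049 (95% interval -0.235 to 0.245), whose sign changed in 3 of the fits with 1 library left out. Tfe3, a close relative with overlapping targets, had 50.8, 56.1 and 54.1 CPM in controls and 57.3, 59.2 and 51.8 CPM in ANKO, a log2 fold change of 0.063 (95% interval -0.136 to 0.261). Per length of transcript, Mitf made up 20.8%, 18.1% and 17.9% of the summed RPKM (CPM per kilobase of exon) of the 3 factors in controls and 27.1%, 25.7% and 22.2% in ANKO. Tfeb was the most abundant of the 3 in each library, at 42.2% to 52.0% of the sum.

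Mast cell markers summed higher in ANKO, as Mitf was, while melanocyte markers did not. The summed level of 8 mast cell markers was 67.0 to 135.5 CPM in controls and 149.7 to 204.2 CPM in ANKO. Kit took most of that sum, at 102.6, 108.0 and 42.7 CPM in controls 1 to 3 and 128.6, 136.5 and 81.9 CPM in ANKO 1 to 3. Without Kit, a choice made after its values were seen, the sum was 24.3 to 32.9 CPM in controls and 67.7 to 73.7 CPM in ANKO. Of the 5 mast cell markers tested, 4 were called higher, and Kit was not. Of the melanocyte markers, Mlana, Dct, Tyrp1 and Tyr were near 0, together at 0.252 to 1.43 CPM over the 6 libraries. Pmel was higher, at 6.91, 5.89 and 8.96 CPM in controls and 5.37, 5.28 and 6.26 CPM in ANKO. Within the ANKO mice Mitf was highest in the library richest in muscle RNA and lowest in the poorest, and with muscle marker level as a covariate its log2 fold change was 0.61 (adjusted p = 0.0705). The part of mast cells, macrophages and melanocytes in the Mitf values was not tested. The counts cover the whole gene, while RefSeq lists 3 start sites for Mitf in the promoter table, so its isoforms could not be separated.

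The initiation genes differed little. Ulk1, the kinase that receives signals from mTORC1 and AMPK, had 109.6, 124.3 and 97.5 CPM in controls and 126.4, 133.9 and 108.5 CPM in ANKO. These ranges overlapped, with a log2 fold change of 0.15 (SE 0.118, adjusted p = 0.672, edgeR). Atg13, the regulatory subunit that bridges ULK1 to its partners, had 50.2, 53.4 and 52.1 CPM in controls and 54.8, 58.3 and 55.9 CPM in ANKO. The Atg13 groups did not overlap, yet the difference was small, at a log2 fold change of 0.12 (95% interval -0.0541 to 0.290). The kinase Ulk2, the scaffold Rb1cc1 (FIP200) and Atg101 had log2 fold changes of -0.12, -0.090 and 0.027.

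The class III lipid kinase complexes were the most even of the 7 groups of roles, with log2 fold changes from -0.095 to 0.097. Becn1, the scaffold subunit Beclin, had 51.4, 51.3 and 51.4 CPM in controls and 48.3, 46.0 and 50.02 CPM in ANKO. Its 3 ANKO values lay below the controls, by a log2 fold change of -0.095 (SE 0.0756, adjusted p = 0.692, edgeR). Exons of Cntd1 on the opposite strand share 43.9% of the Becn1 exon bases, and Cntd1 had 9 to 21 counts. Pik3c3, the catalytic subunit VPS34, had 39.8, 38.1 and 40.6 CPM in controls and 41.5, 38.4 and 43.8 CPM in ANKO. Uvrag and Atg14, which mark the endosomal and the autophagosomal form of the complex, had log2 fold changes of 0.036 and 0.097.

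Of the genes that act on the growing membrane, Wipi1 came closest to a difference. Wipi1, a propeller protein that binds phosphatidylinositol 3-phosphate, had 36.5, 48.4 and 42.2 CPM in controls and 50.8, 55.9 and 47.4 CPM in ANKO. The lowest ANKO value was below the highest control value, and the log2 fold change came to 0.28 (SE 0.121, adjusted p = 0.387, edgeR). Its paralog Wipi2 had a log2 fold change of 0.011. Atg2a, a lipid transfer protein, had 114.2, 143.3 and 121.6 CPM in controls and 122.5, 126.1 and 114.6 CPM in ANKO. Its paralog Atg2b had a log2 fold change of 0.12, with every ANKO value above every control value. Atg9b, a lipid scramblase of restricted expression, was the least abundant of the 37 genes at 4.24, 6.39 and 2.78 CPM in controls and 3.57, 2.98 and 2.69 CPM in ANKO. The Atg9b groups overlapped and the interval of its log2 fold change ran from -1.27 to 0.197. It shares 7.45% of its exon bases with Nos3 on the opposite strand, which had 477 to 926 counts against 54 to 127 for Atg9b, so reads of the shared part are uncertain. The widely expressed paralog Atg9a had a log2 fold change of -0.0076. Of its exon bases 32.6% are shared with other genes, almost all with Gm29253 on the same strand, which had 0 counts.

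**Figure D2:**
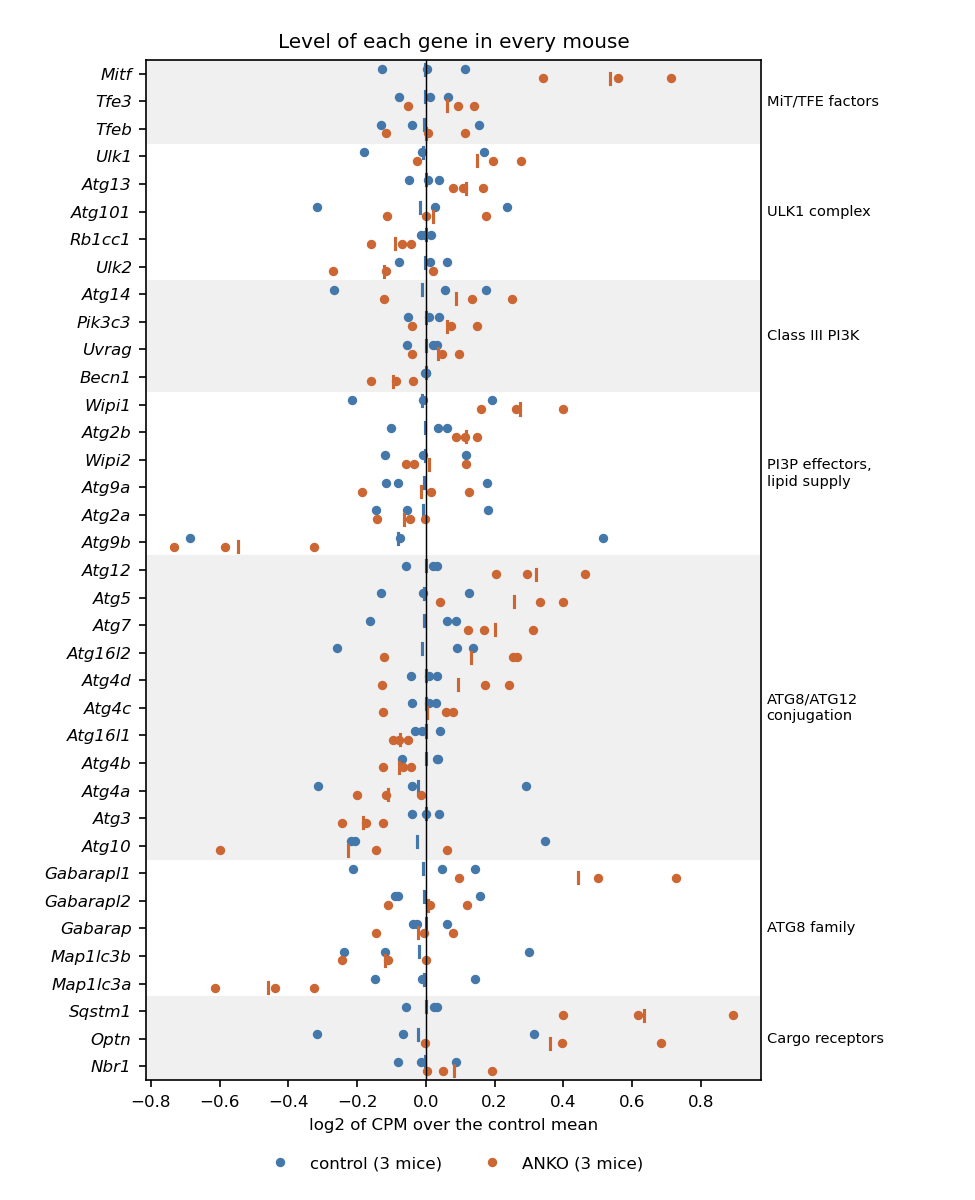
Level of each of the 37 genes in every mouse, as log2 of its CPM over the control mean (x axis), with genes on the y axis grouped by role. Points are mice, 3 control and 3 ANKO, and short bars are group means; the groups separate for Sqstm1, Mitf and Atg12 on the higher side and for Map1lc3a and Atg3 on the lower side, among other genes, and overlap for most of the 37.

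The 11 genes of the conjugation machinery went both ways, 6 with positive and 5 with negative log2 fold changes, from -0.20 to 0.32. Atg12, the ubiquitin-like protein joined to ATG5, had 35.5, 35.2 and 33.3 CPM in controls and 42.5, 47.8 and 39.9 CPM in ANKO. Its groups did not overlap, and the log2 fold change came to 0.32 (SE 0.0954, adjusted p = 0.18, edgeR). Atg3, the E2-like enzyme that hands ATG8 proteins to the membrane lipid, had 44.2, 43.0 and 45.4 CPM in controls and 37.3, 40.5 and 39.2 CPM in ANKO. All ANKO values of Atg3 lay below the controls, at a log2 fold change of -0.18 (SE 0.0799, adjusted p = 0.40, edgeR). Atg7, the E1-like enzyme upstream of both Atg3 and Atg10, pointed the other way with a log2 fold change of 0.20, and its groups did not overlap either. Atg5 had a log2 fold change of 0.26 with overlapping groups, and Atg16l1, which anchors the conjugate at the membrane, one of -0.075. The E2-like enzyme Atg10, the other anchor Atg16l2 and the 4 proteases Atg4a to Atg4d, which process and release ATG8 proteins, had values from -0.20 to 0.14. Of these, Atg4d shares 19.3% of its exon bases with Kri1 on the opposite strand, which had more counts than Atg4d (827 to 989 against 461 to 689).

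Promoter sequences of 31 of the 37 genes were found in the RefSeq promoter table (GRCm38.p6, 250 bases before to 50 after each start). The E-box CACGTG, the core that MiT/TFE factors bind, was found on searching both strands in 4 of these genes, Atg3, Atg5, Atg7 and Atg14, or 12.9%, against 8.09% of all genes in the table. The longer core of the lysosomal CLEAR element, TCACGTGA, which contains the E-box, was found only in Atg3 among them, against 1.13% of all genes. The sites are shown because they are all the E-box matches among these genes. The log2 fold changes of the 4 genes were -0.18, 0.26, 0.20 and 0.097 in that order, and each 95% interval included 0. Capitals mark the E-box within 30 bases, 5′ to 3′ on the strand of the gene.
Atg3 first site, chr16:45158723-45158752, plus strand: gcctccttttgtCACGTGtcctgggagagt
Atg3 second site, chr16:45158746-45158775, plus strand: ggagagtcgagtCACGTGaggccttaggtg
Atg5, chr10:44268313-44268342, plus strand: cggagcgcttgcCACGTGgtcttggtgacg
Atg7, chr6:114670952-114670981, plus strand: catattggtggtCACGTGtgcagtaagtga
Atg14, chr14:47568418-47568447, minus strand: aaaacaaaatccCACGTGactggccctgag
The second Atg3 site begins 71 bases before the start and the Atg5 site 14 bases before it. The Atg7 and Atg14 sites lie inside the genes as annotated by GENCODE M21. Those genes begin at 114643097 on chromosome 6 and, on the minus strand, at 47570649 on chromosome 14. Their windows are thus not at the outermost annotated start. A match to the letters is a description of the sequence and not a measured binding site.

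In the ATG8 family Map1lc3a had lower and Gabarapl1 higher mean values in ANKO, and neither passed the test. Map1lc3a (chromosome 2, 155276297 to 155278073, plus strand), which encodes LC3A, had 51.9, 57.0 and 63.4 CPM in controls and 42.4, 45.8 and 37.5 CPM in ANKO. Every ANKO value of Map1lc3a was below every control value, with an estimate of -0.45 for the log2 fold change (SE 0.11, 95% interval -0.707 to -0.20), with adjusted p = 0.107 by edgeR and 0.0359 by DESeq2. Gabarapl1 (chromosome 6, 129533160 to 129542346, plus strand), of the GABARAP branch, had 55.6, 71.3 and 66.6 CPM in controls and 69.0, 106.8 and 91.3 CPM in ANKO. ANKO 2 and ANKO 3 lay above all controls while ANKO 1 lay within their range, and the log2 fold change came to 0.47 (SE 0.167, adjusted p = 0.286, edgeR). Without ANKO 1 it was 0.64 and without ANKO 2 it was 0.31. The gene 1700101I11Rik on the opposite strand shares 28.3% of the Gabarapl1 exon bases and had 0 to 2 counts. The summed adipocyte markers were lower in the ANKO libraries, as was Map1lc3a, and their part in its values was not tested. Map1lc3b, the LC3B gene usually followed as an autophagosome marker, had a log2 fold change of -0.12 and overlapping groups. Gabarap had 118, 125 and 117 CPM in controls and 109, 127 and 119.6 CPM in ANKO, which overlapped, and Gabarapl2 had a log2 fold change of 0.011.

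Per length of transcript the summed ATG8 family level overlapped between the groups, at 159, 182 and 177 RPKM in controls and 155, 189 and 166 RPKM in ANKO. Its makeup differed. Map1lc3a held 27.6%, 26.5% and 30.3% of the sum in controls and 23.1%, 20.6% and 19.2% in ANKO. Gabarapl1 held 17.3%, 19.4% and 18.7% in controls and 22.1%, 28.1% and 27.4% in ANKO. The Gabarapl1 to Map1lc3a ratio of RPKM was 0.629, 0.734 and 0.616 in controls and 0.956, 1.37 and 1.43 in ANKO, so that the more abundant of these 2 transcripts changed place in ANKO 2 and ANKO 3. This pair was chosen after the values were seen, and the ratio was not tested. Gabarap remained the most abundant ATG8 transcript in all 6 libraries, with 35.8% to 40.1% of the sum.

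**Figure D3:**
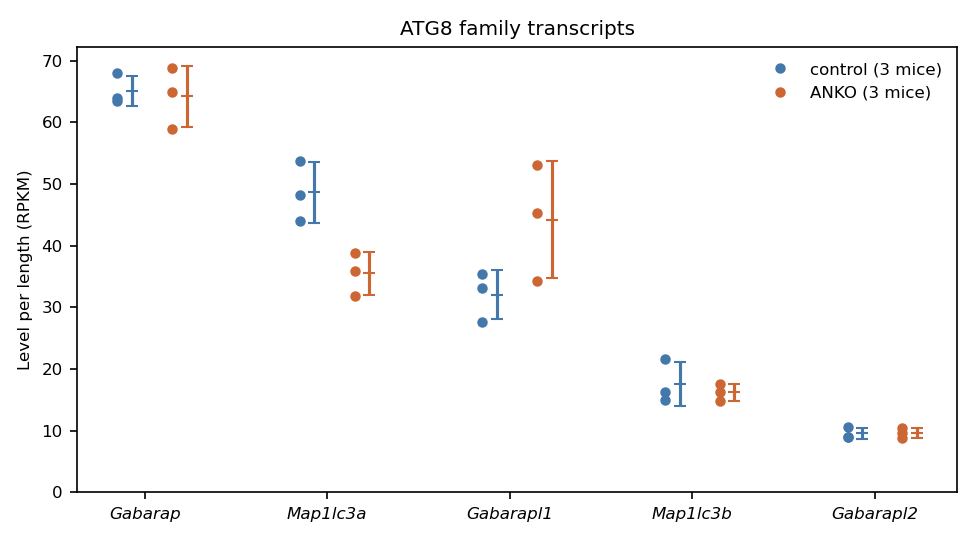
Level per length of the 5 ATG8 family transcripts (y axis, RPKM) in 3 control and 3 ANKO mice; points are mice, and bars give the mean and SD of each group. Map1lc3a sits lower in all ANKO mice (mean 35.5 against 48.6 RPKM), and Gabarapl1 sits higher in 2 of the 3.

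The cargo receptor Sqstm1 had the smallest p of the 37 genes. Sqstm1 (chromosome 11, 50199366 to 50210827, minus strand), whose protein p62 links ubiquitinated cargo to ATG8 proteins and is itself degraded by autophagy, had 194, 205 and 206 CPM in controls and 266, 374 and 309 CPM in ANKO. The 3 controls lay close together, and each ANKO value was well above them. The log2 fold change came to 0.65 (SE 0.129, 95% interval 0.354 to 0.947), or 1.57-fold, with adjusted p = 0.0549 by edgeR, just short of the threshold. The call depended on the processing: adjusted p was 0.0469 with upper-quartile scaling, 0.0113 with no low-count filter and 0.000305 by DESeq2, and ran from 0.0314 without ANKO 1 to 0.17 without ANKO 3. The log2 fold change stayed between 0.51 and 0.78 under every alternative run. Per length, Sqstm1 stood at 60.0 ± 2.03 RPKM (SD, n = 3) in controls, next to Gabarap at 65.1 ± 2.45, and at 94.2 ± 16.2 RPKM in ANKO, where Gabarap stood at 64.2 ± 4.98. Exons of Mrnip on the opposite strand cover 17.3% of the exon bases of Sqstm1. Mrnip had 27 to 64 counts per library against 4002 to 8645 for Sqstm1, which does not tell how reads of the shared part were counted.

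The other receptors differed less. Optn, the receptor optineurin, had 37.005, 31.1 and 48.2 CPM in controls and 38.7, 62.3 and 51.0 CPM in ANKO. Its groups overlapped, and the log2 fold change came to 0.39 (SE 0.215, adjusted p = 0.531, edgeR). Nbr1, a receptor with a domain structure like that of SQSTM1, had a log2 fold change of 0.084. Among the ANKO mice, Sqstm1, Gabarapl1 and Optn were all highest in ANKO 2 and lowest in ANKO 1. The summed adipocyte markers had the same order, at 5182, 7729 and 6388 CPM in ANKO 1 to 3, as did the 12 macrophage markers, at 2537, 3696 and 3641 CPM. Without Lpl the macrophage sum was 1037, 1039 and 1214 CPM. The part of these cells in the Sqstm1, Gabarapl1 and Optn values was not tested. With muscle marker level as a covariate the log2 fold change of Sqstm1 was 0.63 (adjusted p = 0.138). The 100 bases before the Sqstm1 start are shown because Sqstm1 had the smallest p of the group. The whole Sqstm1 window of 300 bases held no match on either strand to the E-box, to the ATF4 composite element TGATGNAA or to the antioxidant response element TGACNNNGC, which 8.09%, 4.51% and 13.99% of all genes held in theirs. That says only that these letters are not in this window.
Sqstm1, chr11:50210821-50210920, minus strand: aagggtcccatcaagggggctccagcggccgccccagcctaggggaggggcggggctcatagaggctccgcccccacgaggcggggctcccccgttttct
Of the 31 genes with a promoter, 4 held the antioxidant response element (Ulk2, Atg13, Map1lc3b and Mitf) and none held the ATF4 element.

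Around these genes, 120 further genes of the pathway in 7 lists were read from the same fit. In these lists 4 genes were called higher (Gpnmb, Atp6v0d2, Atf4 and Ddit3) and 2 lower (Bnip3 and Foxo1), where 0.488% and 1.1% of all features were called. The higher count was 0 in 4 of the 6 fits that each lacked 1 library, and 15 by DESeq2. None of the 22 other genes of autophagosome formation and fusion passed the test by edgeR, with a median log2 fold change of 0.024. An unadjusted p under 0.05 was found for 4 of them, against 6.02% of all features on the higher side and 6.91% on the lower. The smallest p among them was that of Vamp8, a fusion SNARE of the lysosome, at 25.6, 27.4 and 24.8 CPM in controls and 31.4, 30.5 and 33.4 CPM in ANKO (log2 fold change 0.29, adjusted p = 0.21).

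Of 15 other selective autophagy receptors, Bnip3 was called lower by edgeR and none higher, where 1.1% and 0.488% of all features were called. Log2 fold changes were positive in 6, up to 0.88, and negative in 9. An unadjusted p under 0.05 was found for 3 of the 15, against 6.02% of all features on the higher side and 6.91% on the lower. Bnip3, a mitophagy receptor of the outer mitochondrial membrane known to respond to hypoxia, had 86.9, 135.6 and 122.6 CPM in controls and 39.7, 41.0 and 37.5 CPM in ANKO. The 3 ANKO values were close together, and the lowest control value was over them all. The log2 fold change came to -1.55 (SE 0.159, adjusted p = 0.00678, edgeR), and Bnip3 was called without any 1 of the 6 libraries (adjusted p at most 0.0471) and in all 10 other alternatives. The summed adipocyte markers were lower in the same libraries, and the part of adipocyte content in the Bnip3 values was not tested.

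Upstream of TFEB no gene of nutrient sensing passed the test by edgeR. Of 29 mTORC1 and Rag GTPase genes, 4 had an unadjusted p under 0.05 and the median log2 fold change was 0.046. That p was reached by 6.02% of all features on the higher side and 6.91% on the lower, the shares to set beside each list here. The smallest p was that of Flcn, folliculin, which helps mTORC1 hold TFEB in the cytoplasm, at 53.1, 57.9 and 63.9 CPM in controls and 78.1, 87.8 and 80.0 CPM in ANKO. The groups of Flcn did not overlap, and its log2 fold change was 0.49 (SE 0.0942, 95% interval 0.273 to 0.708) with adjusted p = 0.0502. Flcn passed with RLE scaling (0.0462), upper-quartile scaling (0.0469), no low-count filter (0.0187) and DESeq2 (0.0028), but not when any 1 library was left out. None of 9 AMPK genes passed, with 2 at an unadjusted p under 0.05. The smallest p among these was that of the upstream kinase Camkk2 (log2 fold change 0.21, adjusted p = 0.263). None of 7 genes of lysosomal calcium release and calcineurin passed, with 1 at an unadjusted p under 0.05, the two-pore channel Tpcn2 (log2 fold change 0.34, adjusted p = 0.193).

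Downstream, all 27 lysosomal genes of the CLEAR network, the set known to be driven by TFEB, lay above 0 on the log2 fold change scale. Their median was 0.28, and over all features 50.1% were positive. The list was chosen with earlier results of these data known, so the count of 27 is a description only. Of these 2 passed the test by edgeR and 14 had an unadjusted p under 0.05, which 6.02% of all features reached on the higher side. Gpnmb, a transmembrane glycoprotein of lipid-laden macrophages, rose from 7.57, 7.15 and 10.6 CPM in controls to 42.5, 90.2 and 110.3 CPM in ANKO (log2 fold change 3.27, adjusted p = 0.0284). Atp6v0d2, a proton pump subunit of macrophages and osteoclasts, rose from 0.35, 0.705 and 0.36 CPM, or 7 to 14 counts, to 3.02, 8.78 and 15.4 CPM (log2 fold change 4.25, adjusted p = 0.0419). Dropping a single library ended both calls except where that library was ANKO 1 (adjusted p up to 0.133 and 0.19). With no low-count filter both calls ended too (0.0738 and 0.0863), and limma-voom did not call Atp6v0d2 (0.23). Both genes were lowest in ANKO 1 and highest in ANKO 3 among the ANKO mice. The 12 macrophage markers summed to 2537, 3696 and 3641 CPM in ANKO 1 to 3, and to 1037, 1039 and 1214 CPM without Lpl, and their part in these values was not tested. These 2 genes were then left out, a choice made after their values were seen. The summed level of the other 25 was 4011 to 4517 CPM in controls and 4578, 6340 and 5878 CPM in ANKO 1, 2 and 3, with no overlap. The macrophage sum without Lpl, at 733 to 885 CPM in controls, did not overlap either. The part of macrophages in the sum of the 25 genes was not tested.

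Of 12 other transcription factors with autophagy targets, 2 were called higher and 1 lower by edgeR, where 0.488% and 1.1% of all features were called. Atf4, the effector of the integrated stress response, rose from 72.7, 81.8 and 79.5 CPM to 105.8, 125.1 and 112.0 CPM (log2 fold change 0.55, adjusted p = 0.0304), and Ddit3, its partner CHOP, from 9.93, 13.0 and 14.7 CPM to 22.6, 26.0 and 21.7 CPM (log2 fold change 0.90, adjusted p = 0.0419). Foxo1, a factor restrained by insulin signalling, fell from 144.7, 154.4 and 143.0 CPM to 102.4, 102.0 and 102.9 CPM (log2 fold change -0.52, adjusted p = 0.0152). The summed adipocyte markers were lower in the same libraries, and the part of adipocyte content in the Foxo1 values was not tested. Dropping 1 library at a time ended the Atf4 call in 5 of 6 cases, all but ANKO 1 (adjusted p up to 0.117), the Ddit3 call in 5, all but control 3 (up to 0.133), and the Foxo1 call in 4, all but controls 1 and 3 (up to 0.0844). The Ddit3 call was also lost with limma-voom (0.0502), with robust=FALSE (0.0545) and with the replicate block (0.0711). With the muscle covariate Atf4, Ddit3 and Foxo1 missed the threshold (adjusted p = 0.091, 0.0896 and 0.053), while their log2 fold changes were 0.54, 0.92 and -0.53, close to those without it.

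**Figure D4:**
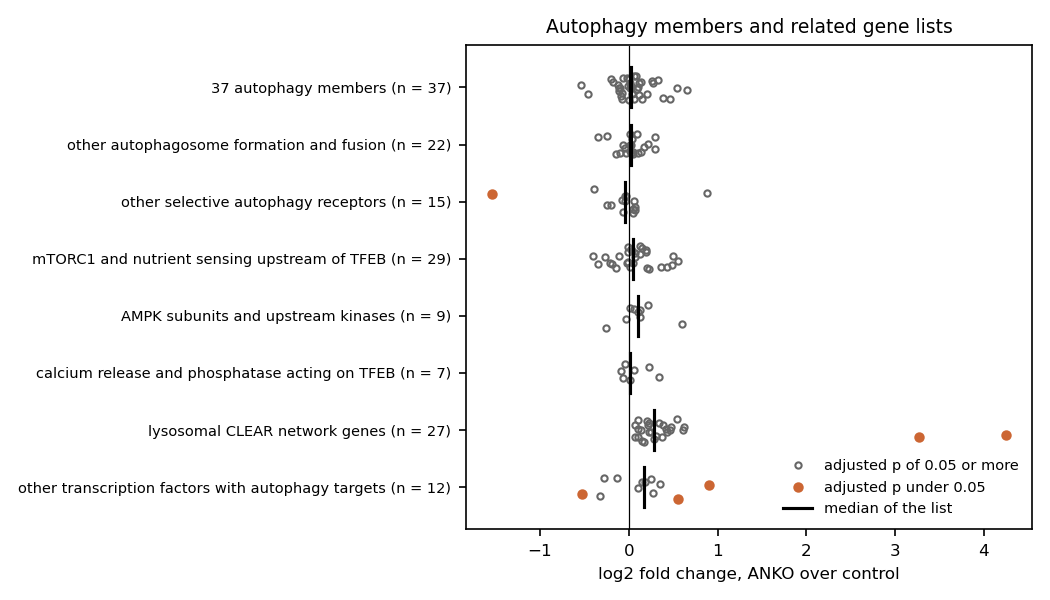
Log2 fold change, ANKO over control (x axis), of the 37 autophagy genes and of the genes of 7 related lists (y axis). Open circles are genes with an adjusted p of 0.05 or more, filled circles genes under 0.05 and bars the list medians. The 37 genes centre on 0.027 with none called, and all 27 CLEAR network genes lie above 0. The lists were chosen with earlier results of these data known.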

How the data were processed

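The submitters' processing notes name STAR 2.0.4b, Subread, featureCounts 1.45 and GRCm38. No source used here gives the annotation release or the strand setting. How reads in exons shared between genes were counted is not known, and a low count of the overlapping gene does not settle it. The files deposited hold raw read counts per gene symbol, 1 column per mouse, and groups were taken from the sample titles. Exact repeat lines (329 of 40757) were dropped, leaving 40428 features, and no member had more than 1 line. Library totals were 19748962 to 23860596 counts. Features were kept by edgeR's filterByExpr (minimum count 10, minimum total 15), which left 19272. They were tested with edgeR 4.0.16 (R 4.3.3), with TMM scaling and the robust quasi-likelihood F test, and adjusted by Benjamini-Hochberg over all tested features at 0.05. SE is the log2 fold change over the square root of F, and intervals are 95% from the same fit. The steps were tested on simulated data. Alternatives used limma 3.58.1 and DESeq2 1.42.0. RPKM is TMM-scaled CPM per kilobase of merged GENCODE M21 exons. Promoters were searched on both strands.

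The members and lists were chosen with earlier results of these data known. Values are given for every member past the threshold, for the 2 of smallest p and the most abundant per length in each role, and for the called genes, or the 1 of smallest p, in each other list. Other members named were named after their values were seen.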

Additional observations from a re-analysis of the deposited data

How the results depend on the processing

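No autophagy gene was called higher or lower with RLE scaling, limma-voom, robust=FALSE, the filter of 1 CPM in 3 samples, summed repeated symbols, the muscle covariate or the replicate block. With upper-quartile scaling 1 was higher (Sqstm1), with no low-count filter 2 (Sqstm1 and Mitf), and with DESeq2 2 were higher and 1 lower. Leaving out each library gave 0 to 1 higher (Sqstm1, without ANKO 1) and 0 lower. The median log2 fold change of the 37 genes was -0.0146 without control 1 and otherwise 0.0225 to 0.0835 in those fits. Over all features 94 were higher and 212 lower. The higher ones numbered 371 with DESeq2, 167 with no low-count filter, 62 with the replicate block and 51 with the muscle covariate, and the lower ones 480 with DESeq2, 112 with the muscle covariate and 145 with the block. Leaving out a library gave 20 (without ANKO 3) to 107 higher and 55 (without ANKO 3) to 221 lower. Of the other pathway genes 4 were higher and 2 lower. This became 15 higher with DESeq2, 2 higher with limma-voom, 1 lower with the muscle covariate, and 0 to 7 higher and 1 to 2 lower without 1 library, with 0 higher without control 1, control 2, ANKO 2 or ANKO 3. Leaving out 1 library changed the sign of the log2 fold change for 12 of the 37 genes. Atg10 ran from -0.352 to 0.0197, Map1lc3b from -0.221 to 0.0612, and Atg101, Atg14, Atg4a, Atg4c, Atg9a, Gabarapl2 and Wipi2 lay between -0.242 and 0.214. The others were Tfeb (-0.0563 to 0.102 with 1 library left out, -0.0036 with the muscle covariate, -0.0146 without control 1, -0.0563 without control 2, -0.0519 without ANKO 3), Gabarap (-0.073 to 0.0573 with 1 left out, 0.0106 without control 2, 0.0573 without ANKO 1) and Atg2a (-0.129 to 0.038 with 1 left out, 0.038 without control 2). In these cases the cause was not tested. The deviations of same-numbered mice correlated at 0.0746, -0.0333 and -0.0435, and those of other pairs at -0.0891 to 0.110. No pairing by number was seen, but 3 mice per group cannot exclude it. In the 100 bases before the start 2 members held an E-box, against 4 in the whole window. The 10 most abundant members per length shared 9 with those by longest transcript.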
